A study of Mus musculus with 2 samples.

Results

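The Snrpn and Ube3a domain of mouse chromosome 7 is an imprinted region in which CTCF was found at 27 sites. The region was taken from 100 kb before Atp10a to 100 kb after Mkrn3, the outermost of the 6 member genes Atp10a, Ube3a, Snrpn, Ndn, Magel2 and Mkrn3, which is chr7:58556166-62520139 on mm10. It measures 3963974 bp and includes 50000 undetermined bases (N). Every peak summit of the optimal list in this window was kept, which gave 27 of the 54943 sites on the assembled chromosomes. That is 6.90 sites per Mb in the domain, against 26.3 per Mb over the rest of chromosome 7 and 20.8 per Mb over the rest of the genome. The sites lay in clumps: 4 were between Ndn and Mkrn3 and 4 in the 100 kb that follow, while the 671 kb between Ube3a and Snrpn held none.

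The material was lung of B6NCrl mouse embryos at 14.5 days of age, pulverised and pooled over several dissections and both sexes. Chromatin was precipitated with an antibody to CTCF and sequenced as 2 libraries, which form 1 group. Both are labelled as biological replicates, but they carry the same biosample and donor labels, so their spread may be partly technical. There is no second condition, no input track was used here, and nothing in the peak lists tells the maternal from the paternal chromosome. All values below describe this one tissue pool and were not tested between conditions.

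CTCF is a zinc finger protein that binds DNA at a long directional motif and stops cohesin as it extrudes chromatin loops, so that loops often form between motifs that point at each other. In an imprinted domain one parental copy of a gene is silent, and at some such domains, with H19 and Igf2 as the textbook case, CTCF binds only the unmethylated parental copy and blocks enhancers there. In the Snrpn and Ube3a domain the imprinting centre lies at the Snrpn promoter. Snrpn, which encodes a splicing protein, and Snurf, Ndn, Magel2, Mkrn3 and Peg12 are expressed from the paternal copy. Snhg14 is a long paternal transcript that hosts clusters of small nucleolar RNAs, Snord115 and Snord116 among them, and runs through Ube3a in antisense. Ube3a, a ubiquitin ligase, is expressed from the maternal copy in neurons and from both copies in most other tissues. Loss of the human counterparts leads to Prader-Willi or Angelman syndrome. Atp10a, a phospholipid flippase, lies on the other side of Ube3a.

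The CTCF motif was learned as a 20-base matrix from the strongest 3000 sites of the even-numbered autosomes, so that chromosome 7 had no part in it. Its most frequent bases read TGGCCACCAGGGGGCGCCAG. A match had to score at least 11.0 bits, a threshold that 1% of windows shifted 1000 bp from a summit would pass. Such a match was present around 21 of the 27 domain summits, at a distance of at most 50 bp. A selection of these matches from along the domain is shown 5' to 3' on the motif's own strand. It lets the reader see how far each departs from the most frequent bases. Not every strong site, and not every site nearest to a member gene, is among them. Capitals mark bases equal to the most frequent base.
Site 1, before Atp10a: TcaCCACtAGatGGtGCCAt
Site 5, intron of Atp10a: TGGCCACaAGaGGGCaatAG
Site 9, inside Ube3a: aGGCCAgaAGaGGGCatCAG
Site 17, beside Gm9801: TGtCCACtAGatGGaagCcG
Site 20, before Magel2: aaaCCACtAGGGGGCagaAG
Site 21, behind Magel2: TGGCCAgtAGGtGGCagaAa
Site 23, between Magel2 and Mkrn3: TGGCCACCAGaGGGaGaCAt
Site 24, before Mkrn3: TaaCCACtgGaGGGCGCaca
Site 25, before Mkrn3: TaaCCACtAGaGGGCaCaca
Site 27, before Peg12: gGGCCACCAGaaGGCagacG

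**Figure D1:**
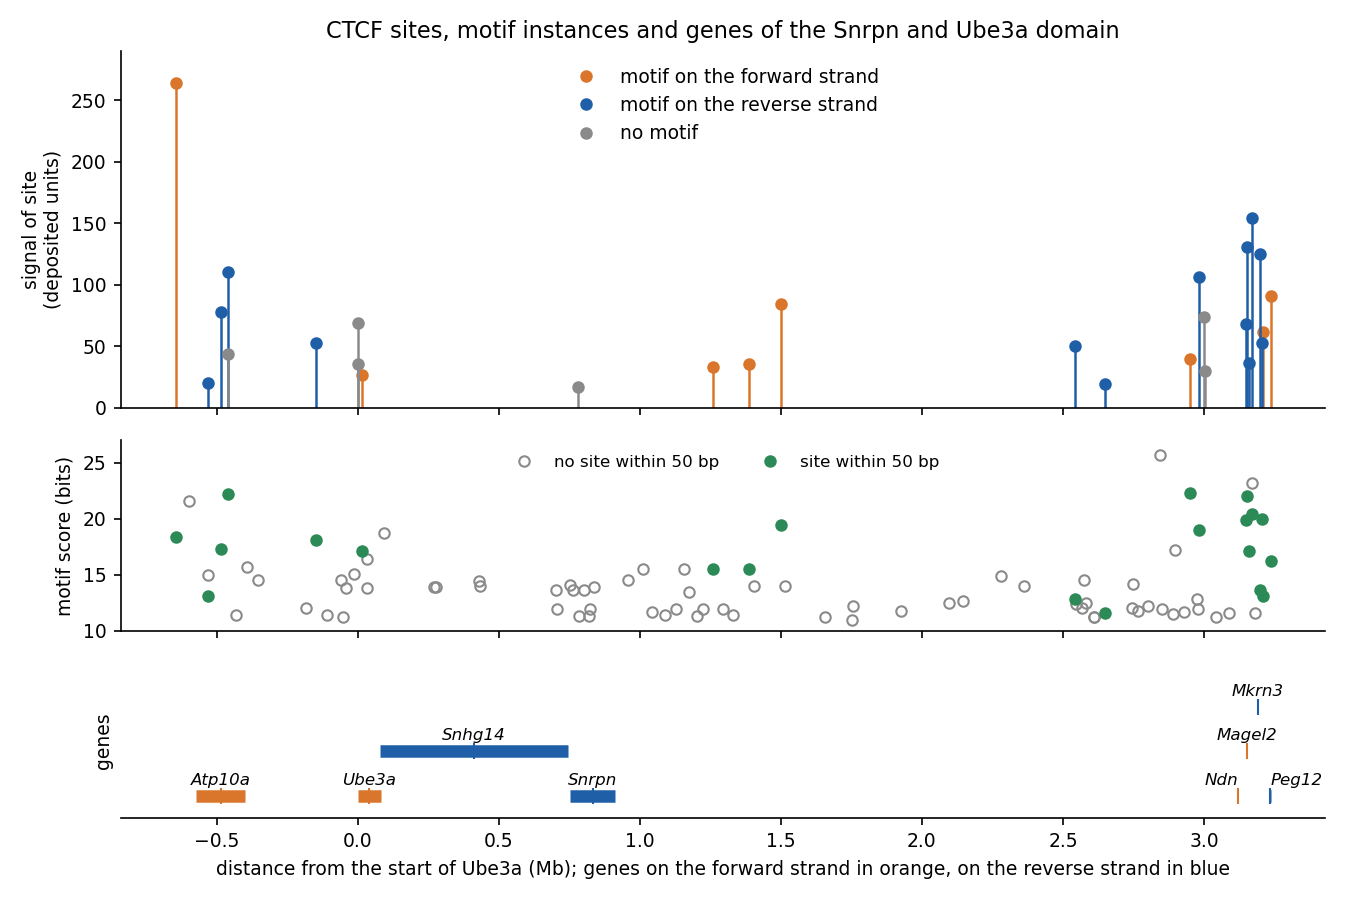
Top, the signal of each of the 27 domain sites as deposited in the optimal list, against distance from the start of Ube3a in Mb, coloured by the strand of the motif. Middle, the score of the 90 motif instances, filled where a site lies within 50 bp; bottom, genes. The sites stand in clumps around Atp10a, at the start of Ube3a and around Ndn, Magel2, Mkrn3 and Peg12, with long stretches between them in which the instances are open circles.

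The 27 sites were of middling strength. Signal is the enrichment value that the authors' peak caller gave each peak, with no unit stated, and its percentile gives the share of all sites with a signal at or below it. The domain sites ranged from 16.9 to 264 with a median of 53.0, against medians of 63.5 over the rest of chromosome 7 and 62.3 over the rest of the genome. Their median percentile was 45.0. Above the genome-wide median stood 12 sites, with 1 among the top 10% and 3 among the lowest 10%. All 27 were also in both replicate lists, and 26 were in the conservative list. Each replicate list holds 300000 peaks, and the conservative list holds 53112 against 54953 in the whole optimal list. The same shares were not computed over all sites, so these counts are not read as a trait of the domain.

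The replicates ordered the sites alike. Spearman's rho between the replicate signals over the 27 sites was 0.923, given as a description because both libraries came from the same tissue and share a control. Replicate 1 read higher in general, with a median ratio to replicate 2 of 1.33 in the domain and 1.23 over the rest of the genome. Individual ratios ran from 0.641 to 2.25. On the percentile scale a site differed between replicates by a median of 5.88 points in the domain and 4.68 points elsewhere.

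**Figure D2:**
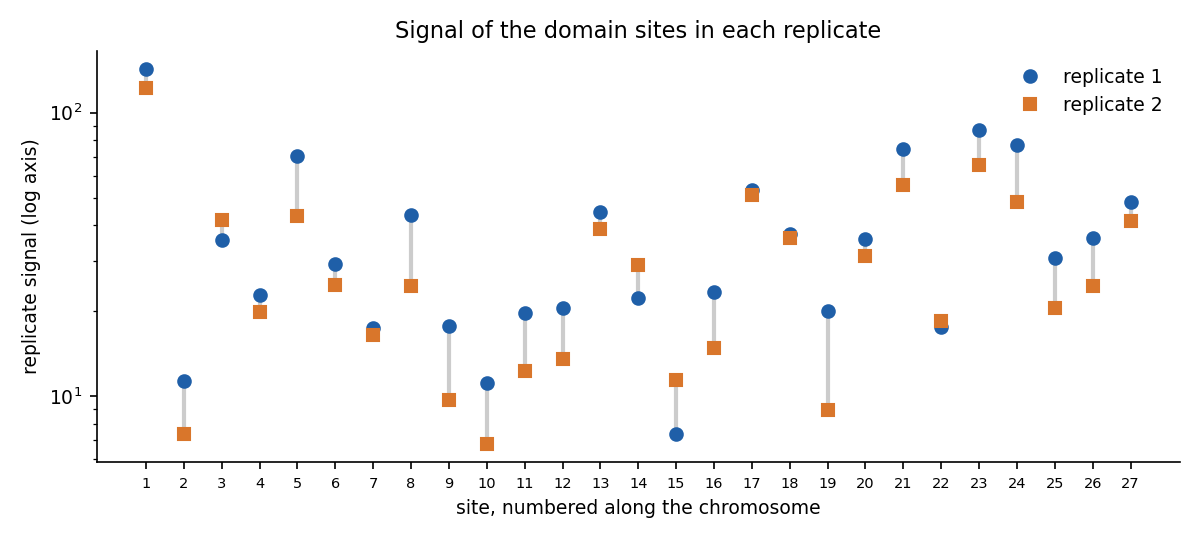
Signal of each domain site in replicate 1 and replicate 2, on a log axis, with the sites numbered along the chromosome. Site 1 is the highest in both replicates, at 142 and 122; the widest relative gap is at site 19, with 20 in replicate 1 and 8.91 in replicate 2.

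Around Atp10a there were 5 sites. Site 1, the strongest of the domain, lay 71733 bp upstream of the Atp10a start at chr7:58584324-58584558 with a signal of 264, which is percentile 90.8. Its replicate signals were 142 and 122. The motif matched the most frequent base at 13 of 20 positions and scored 18.4 bits on the forward strand. The Atp10a gene itself, at chr7:58656166-58829420, held 4 intronic sites and none within 1 kb of its start, the nearest being 43078 bp downstream.

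Within the Atp10a introns, site 5 was the strongest at 110.3, with 70.4 and 43.3 in the replicates and a motif of 22.2 bits. Site 3 had a signal of 78.2 and a motif of 17.3 bits. Site 4 read 43.9 and had no motif, with 58.4% GC within 50 bp of the summit, and site 2 read 20.3 with a motif of 13.1 bits in soft-masked sequence, which is sequence the reference marks as repeat. The 3 motifs in these introns all pointed along the reverse strand and so towards site 1, whose motif is on the forward strand. Between Atp10a and Ube3a, over 398 kb, site 6 was alone, with a signal of 53.0, replicate signals of 29.3 and 24.7, and a reverse motif of 18.1 bits.

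Ube3a, at chr7:59228750-59311536, was the one member gene with a site within 1 kb of its start, and it had 2. Site 7 lay 405 bp upstream with a signal of 36.0, and its replicates read 17.4 and 16.4. Site 8 lay 206 bp downstream, in an exon shared by Ube3a and the overlapping 9330162G02Rik, with a signal of 69.0 and replicates of 43.4 and 24.5. Neither held a motif, and the bases within 50 bp of their summits were 52.5% and 65.3% GC, above the 38.9% of the domain. Further in, 16978 bp from the start, site 9 read 26.6 with replicates of 17.7 and 9.68 and carried a soft-masked motif of 17.1 bits.

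Near the imprinting centre CTCF signal was low. Site 10, at chr7:60007747-60008036, lay in an intron of Snrpn as GENCODE draws it, 2843 bp upstream of the Snurf start and 2781 bp from the nearer Snrpn transcript start. Its signal of 16.9 was the lowest of the 27 and stood at percentile 4.31. The replicates read 11.1 and 6.80. The best motif score in its window was -5.95 bits, so it held no match, and no other site lay in the 158 kb of Snrpn. The 6 motif instances inside Snrpn, 4 of them soft-masked, had no site.

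The gap between Ube3a and Snrpn was the emptiest section. It spans 671 kb, nearly all of it inside Snhg14, and holds 210 annotated small nucleolar RNA genes. No optimal site lay there, and the distance from site 9 to site 10 was 762 kb, which made it 268th among the gaps between neighbouring sites of the genome, with 0.486% of gaps longer. Soft-masking covered 67.0% of the section and 68.3% of its 32-base words occurred more than once in the genome, against 46.1% and 31.7% in the whole domain. All 8 motif instances were soft-masked. The weaker pooled peaks numbered 6, with signals from 5.01 to 6.18, and 1 of them held a motif. The 50000 undetermined bases lie in this section. The length of the reads is not given in the sources used here, so how much of the section reads could reach was not tested.

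From Ndn to Mkrn3 and beyond, sites were denser than over the rest of chromosome 7, which had 26.3 per Mb. The 73.6 kb from Ndn to Mkrn3 held 4 sites, or 54.4 per Mb, and the 100 kb after Mkrn3 another 4, or 40 per Mb. Ndn, which restrains neuronal growth, is a gene of 3.69 kb with no site inside it, and its nearest site was 29288 bp from its start. That is site 20, which lay 1153 bp upstream of Magel2, a partner of ubiquitin ligases, with a signal of 67.8, replicates of 35.9 and 31.1 and a motif of 19.9 bits. Site 21 followed 5606 bp downstream of the Magel2 start, with 131 and replicates of 74.5 and 55.5.

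Site 22 and site 23 came next, with signals of 36.5 and 154. Their motifs differ by T2G and A18C, counted from 1 at the 5' end, site 22 first. Replicate signals were 17.6 and 18.4 at site 22 and 87.0 and 65.5 at site 23. A second reverse motif of 23.2 bits starts at position 62400284, 91 bp from the summit of site 23 and inside the same pooled peak. The stronger of the pair thus had a second match within its peak.

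Mkrn3, a ring-finger gene known in people for its part in the timing of puberty, had no site in it or within 5 kb of its start. Site 24 lay 8396 bp upstream of Mkrn3 with a signal of 125 and replicates of 76.8 and 48.2. Site 25 lay 4.92 kb further on, with a signal of 52.4 and replicates of 30.6 and 20.4. The 436 bases that align around these sites are 76.1% identical and their motifs differ by G9A and G16A, site 24 first. Base 9 is A at a frequency of 0.981 in the matrix. Each round of learning left out the 30% of sites with the lowest match scores, so this is not a share of all 3000 sites. The motif of site 24, with G there, scored 13.6 bits and that of site 25 scored 20, so the lower score went with the higher signal.

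Site 26, with 61.7, and site 27, with 90.7, closed the domain. Site 27 lay 159 bp upstream of Peg12, an intronless paternal gene, with replicates of 48.2 and 41.4. It was one of 5 sites within 1 kb of the start of any domain gene, and the genes concerned were Ube3a, Mir344, Gm9801 and Peg12. Among the 9 protein-coding genes of the window 2 had such a site, against 26.6% of protein-coding genes genome-wide. None of the RefSeq promoter sequences of the 6 member genes, which are 300 bases long and span the start, held a match to the matrix on either strand, against 4.05% of all 32851 promoter sequences that did.
The Peg12 promoter (RefSeq, GRCm38.p6, chr7:62464461-62464760, reverse strand) did hold one, and it is shown with the match in capitals, the motif running against the gene.
Peg12 promoter: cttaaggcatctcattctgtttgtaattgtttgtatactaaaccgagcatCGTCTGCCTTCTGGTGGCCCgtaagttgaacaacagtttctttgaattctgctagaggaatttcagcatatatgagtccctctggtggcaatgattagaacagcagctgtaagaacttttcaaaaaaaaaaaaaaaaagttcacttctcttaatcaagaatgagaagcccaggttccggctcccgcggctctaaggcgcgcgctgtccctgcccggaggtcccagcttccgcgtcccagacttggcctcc

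The 2206 kb between Snrpn and Ndn held no protein-coding gene, 9 sites and 47 motif instances, of which 7 had a site. Sites 14 and 15 read 50.6 and 19.5, with replicates of 22.2 and 28.9 at site 14 and 7.33 and 11.4 at site 15. Site 15 lay within 1 kb of Mir344, in soft-masked sequence, and was the one domain site missing from the conservative list. Site 16, in an intron of the long non-coding Gm9801, read 39.4 with a motif of 22.3 bits. Site 17, 96 bp before Gm9801, read 106 with a motif of 19 bits, and sites 18 and 19 read 73.7 and 30.3 with no motif. The longest gap of the domain, 1042 kb between sites 13 and 14, was also here and ranked 168th in the genome.

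Sites 11, 12 and 13 in this stretch shared one sequence. The 20 bases of sites 11 and 12 were identical, and a search of the whole genome for the sequence, with up to 1 base different, found 5 places, all on the forward strand between Snrpn and Ndn. Neighbouring copies started 148173, 101083, 129222 and 111055 bp apart. Around the motifs, 1001-base stretches of copies 2 to 5 were 93.2% to 96.7% identical where aligned, and copy 1 was 81.8% to 85.6% identical to the others. The copies are shown in chromosome order with base 4 in capitals, since it is the one base that varies.
Copy 1, chr7:60238978-60238997: tggAcggtagatggcggtgt
Copy 2, chr7:60387151-60387170: tggAcggtagatggcggtgt
Copy 3, site 11, chr7:60488234-60488253: tggAcggtagatggcggtgt
Copy 4, site 12, chr7:60617456-60617475: tggAcggtagatggcggtgt
Copy 5, site 13, chr7:60728511-60728530: tggCcggtagatggcggtgt

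All 5 copies had a pooled peak, but of graded size. Copy 1 lay in a pooled peak of 9.77 that was listed in replicate 1 at 4.30 and was not listed in replicate 2. Copy 2 lay in a pooled peak of 18.5, listed at 8.17 and 8.15 in the replicates, which passed the conservative but not the optimal list. Copies 3 and 4 read 33.1 and 35.4, with 19.7 and 12.3, and 20.5 and 13.5, in the replicates. Copy 5, which has A4C relative to the others, read 84.4, with 44.5 and 38.9. It was the highest of the 5 in each replicate, and its motif scored 19.4 bits where the other 4 scored 15.5.

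Identical motifs thus differed in signal from 9.77 to 35.4, so the 20 bases alone do not order the copies. Within 100 bp of copy 1, 35.3% of 32-base words were unique in the genome, and at the other copies the share was 54.7%, 64.2%, 60.2% and 66.2% in chromosome order. The part of read placement in the differences was not tested. Over all other sites with a motif, those with C at base 4, which made up 86.5%, had a median signal of 92.1, and the 7.11% with A had 113. These are motifs that have a site, so they do not show how often either base goes without one, and the part of base 4 in the signal of copy 5 was not tested.

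**Figure D3:**
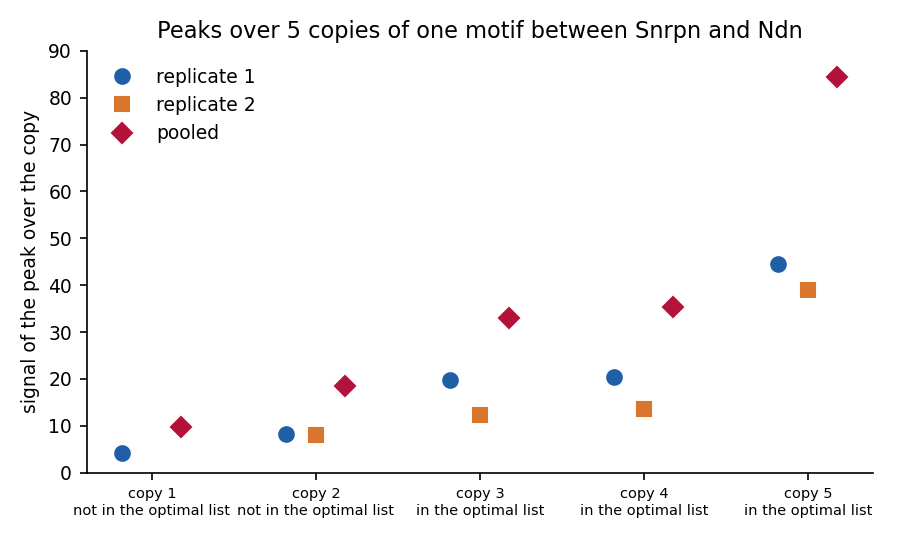
Signal of the peak over each of the 5 copies of the motif in replicate 1, replicate 2 and the pooled list, in chromosome order. The pooled signal is 9.77, 18.5, 33.1, 35.4 and 84.4; copy 1 has no peak in replicate 2.

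The low density of sites went with a low density of motifs. The domain held 90 motif instances, or 23.0 per Mb of determined bases, against 71.5 per Mb over the rest of chromosome 7 and 59.6 per Mb over the rest of the genome. The ratio to the rest of chromosome 7 was 0.262 for sites and 0.322 for instances. A core of 11 bases, taken up below, made up 15.6% of instances in the domain and 34.3% in the rest of the genome. Densities of instances without that core were not computed. The shortfall of instances was smaller at a stricter threshold, passed by 0.1% of shifted windows. There they stood at 2.55 per Mb, against 5.80 in the rest of chromosome 7 and 4.73 in the rest of the genome. The share of instances with a site within 50 bp was 23.3% in the domain (21 of 90, 95% Wilson interval 15.8 to 33.1), against 23.0% in the rest of chromosome 7 and 21.8% in the rest of the genome. Had the domain the site density of the rest of the chromosome it would hold 103 sites.

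Sites in the domain had a motif in 77.8% of cases (21 of 27, 59.2 to 89.4), against 61.3% in the rest of chromosome 7 and 61.1% in the rest of the genome. The share of the rest of the genome lies inside the interval of the domain. Those with a motif had a median signal of 61.7 and the 6 without 39.9, against 94.1 and 37.6 in the rest of the genome. Soft-masked summits made up 11.1% of domain sites (3 of 27, 3.85 to 28.1), against 20.1% and 19.6%, which both lie inside that interval. More of the domain sequence is soft-masked, with 46.1% of its bases against 35.1% and 36.4%. The domain is also poorer in GC, at 38.9% against 43.2% and 41.7%, and in protein-coding genes, at 2.30 per Mb against 14.6 and 8.30.

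Tiles of the same length laid over the genome place these figures. Of 646 tiles apart from those that overlap the domain, 120, or 18.6%, had fewer sites per Mb than the domain and 47, or 7.28%, had fewer motif instances. Across tiles the densities ran together, with a Pearson r of 0.943 and a Spearman rho of 0.925, as a description of tiles that share base composition and library. The 161 tiles within 1 percentage point of the GC of the domain had a median of 8.69 sites and 32.5 motif instances per Mb. Among them 58 had fewer sites than the domain and 5 had fewer instances. The 22 tiles of chromosome Y, which hold no site and all fall in this range of GC, are counted here. Without them 98 of 624 tiles, or 15.7%, had fewer sites than the domain, and so did 36 of the 139 tiles of like GC, whose median was 9.09 sites per Mb.

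**Figure D4:**
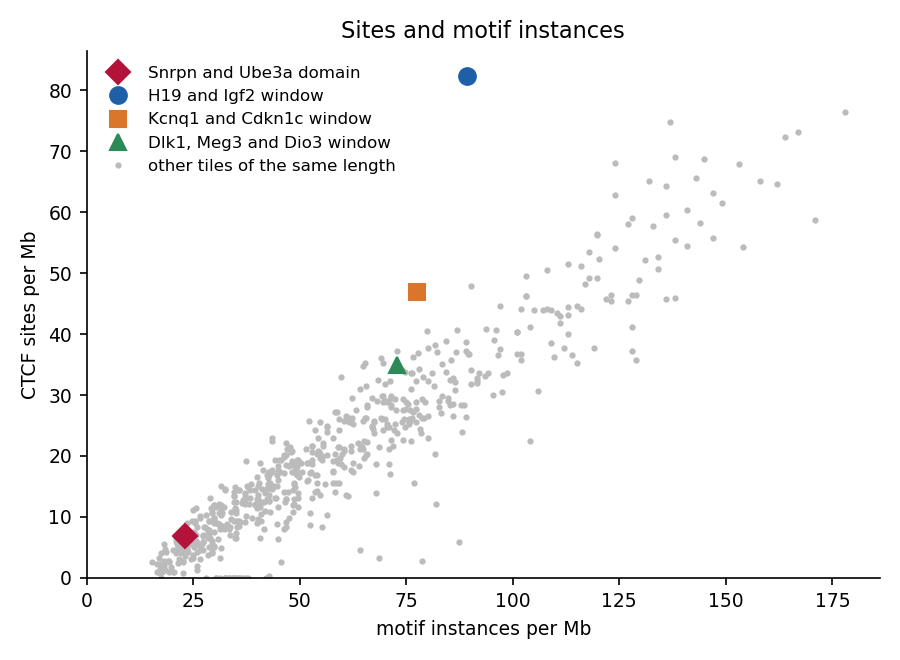
CTCF sites per Mb against motif instances per Mb for the domain (red diamond), the windows of 3 other imprinted domains and the tiles of the domain's length over the genome (grey). The domain lies at 6.90 sites and 23.0 instances per Mb, at the sparse end of the band of tiles; the other imprinted windows are shorter than a tile.

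Other imprinted domains, taken by the same rule, were dense by comparison. The window of H19 and Igf2 held 24 sites, or 82.4 per Mb, that of Kcnq1 and Cdkn1c 26, or 46.9 per Mb, and that of Dlk1, Meg3 and Dio3, on chromosome 12, held 36, or 35.0 per Mb. Their motif instances stood at 89.3, 77.5 and 72.9 per Mb, and 50%, 44.2% and 28% of them had a site, against 23.3% in the Snrpn and Ube3a domain. These windows are shorter and richer in GC, at 46.9% to 48.6%.

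The sections of the domain differed in how many instances had a site. All 4 of the instances after Mkrn3 and 4 of the 6 from Ndn to Mkrn3 had one, and none of the 8 between Ube3a and Snrpn or the 6 in Snrpn did. None of the instances after Mkrn3 or from Ndn to Mkrn3 were soft-masked. All 8 between Ube3a and Snrpn were, and 4 of the 6 in Snrpn. The part of masking in the difference was not tested. Shares with a site by score and by masking were taken over the whole domain, not by section. Among the 21 instances that scored at least 15.5 bits 14, or 66.7%, had a site in the domain, against 54.5% in the rest of the genome, and between 11.0 and 12.4 bits it was 1 of 33, or 3.03%, against 8.47%. In between, the domain share did not climb steadily: it was 4 of 17, or 23.5%, from 12.4 to 13.9 bits, against 10.5% elsewhere, and 2 of 19, or 10.5%, from 13.9 to 15.5 bits, against 13.2%. Of 44 soft-masked instances 3 had a site, which is 6.82% against 11.1% elsewhere, and of 46 others 18 did, 39.1% against 34.6%. At the shares of the rest of the genome by score and masking, the 90 instances would have given 20.2 occupied ones, where 21 were found.

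**Figure D5:**
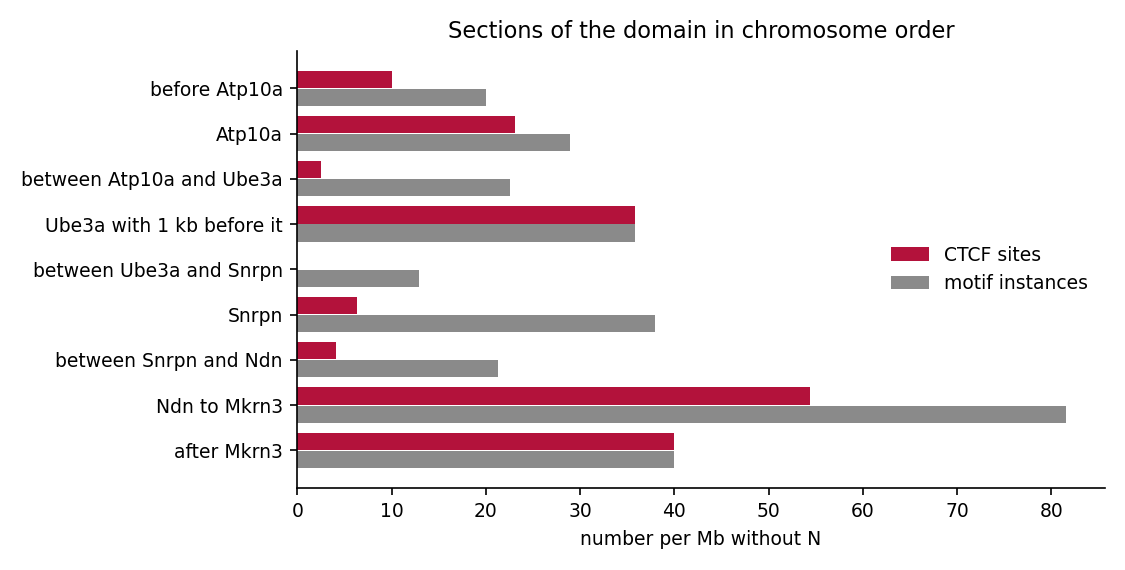
CTCF sites (red) and motif instances (grey) per Mb in 9 sections of the domain, from the edge before Atp10a at the top to the edge after Mkrn3 at the bottom. Sites run from 0 per Mb between Ube3a and Snrpn to 54.4 per Mb from Ndn to Mkrn3.

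Instances without a site were soft-masked about as often as elsewhere. Of the 69 in the domain 41, or 59.4%, were soft-masked, against 59.8% in the rest of chromosome 7 and 62.0% in the rest of the genome. Among the 21 with a site it was 3, or 14.3%, against 29.2% and 27.7%. A 32-base word that occurs elsewhere in the genome covered 31 of the 69, or 44.9%, against 35.9% in the rest of chromosome 7, and 1 of the 21, or 4.76%, against 3.53%. A core of 11 bases that site 9 carries, CCAGAAGAGGG at bases 4 to 14, was shared by 14 domain instances, all soft-masked, and site 9 was the only one of them with a site (7.14%, 1.27 to 31.5). In the rest of the genome 54036 instances carried it, 99.4% of them soft-masked, and 10.9% had a site. It made up 15.6% of instances in the domain and 34.3% elsewhere. Site 9 and 3 others that differ from it at few bases outside the core are shown with the core in capitals. Some of the remaining instances with the core differ from site 9 at more bases.
Site 9, inside Ube3a: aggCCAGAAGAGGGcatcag
No site, chr7:59262336-59262355, inside Ube3a: agaCCAGAAGAGGGcgtcag
No site, chr7:60188442-60188461, between Snrpn and Ndn: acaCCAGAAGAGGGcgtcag
No site, chr7:58629445-58629464, before Atp10a: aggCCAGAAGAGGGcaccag

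The highest-scoring motif of the whole domain had no site. It starts at position 62072009, between Snrpn and Ndn, scores 25.7 bits, matches the most frequent base at 15 of 20 positions and is soft-masked. A pooled peak of 13.9 covered it, listed at 5.77 in replicate 1 and 8.24 in replicate 2, but it passed neither thresholded list. The instance of 21.6 bits before Atp10a, shown above with the core, likewise lay under a pooled peak, of 15.8, with 11.4 and 4.33 in the replicates. Its 32-base word occurs 63 times in the genome.
No site, chr7:62072009-62072028, between Snrpn and Ndn: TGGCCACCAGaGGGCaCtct

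Weaker peaks of the pooled list were sparse in the domain too. The domain held 151 pooled peaks, or 38.6 per Mb, against 133 per Mb in the rest of chromosome 7, and 17.9% of them were in the optimal list, against 18.3% in the rest of the genome. Of the 124 that were not, 7 had a motif, or 5.65% against 7.49% elsewhere, and 43 were soft-masked, 34.7% against 22.5%. Their median signal was 6.01, against 6.42 elsewhere. Between Snrpn and Ndn lay 56 of them, and 6 lay between Ube3a and Snrpn. The 1042 kb gap between sites 13 and 14 held a peak of 13.1, with 5.07 and 6.82 in the replicates. Both replicate lists held 16 of the 124, 90 were in 1 list and 18 in neither, counts that were not made for the rest of the genome. The highest, with 27.5 at chr7:58870748-58871037 between Atp10a and Ube3a, had no motif, read 11.3 and 13.8 in the replicates and was in the conservative list.

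Tandem pairs of motifs were the most common kind, as in the genome. Of the 21 motifs 8 were on the forward and 13 on the reverse strand. Among 20 neighbouring pairs of domain sites with a motif, 3 were convergent, 3 divergent and 14 tandem, or 15%, 15% and 70.0%. The shares of the 33552 pairs in the genome were 24.2%, 24.2% and 51.7%. No interval was made for the domain shares, and the tandem pairs among sites 11, 12 and 13 join copies of one sequence. Tandem order is thus not read as a trait of the domain. The longest run on one strand was of 7 reverse motifs over 224 kb, from site 17 beside Gm9801 through Magel2 and Mkrn3 to site 25. Of 16226 such runs in the genome 245, or 1.51%, were at least as long. The run was picked as the longest of the domain and set against every run, so this share does not measure how unusual it is. The 1042 kb gap between sites 13 and 14 was bounded by a forward and a reverse motif, which point into it.

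The sparse stretch did not end at the window. The last site before it lay 185 kb from site 1 and the first after it 77.7 kb from site 27. The 500 kb before the window held 3 sites, or 6.00 per Mb, and the 500 kb after it 4, or 8.0 per Mb. Motif instances stood at 36.0 and 50 per Mb there, above the 23.0 of the domain. Of these instances 1 of 18 before and 3 of 25 after had a site, against 21 of 90 in the domain. Farther after, the block from Chrna7 to Fan1, with Otud7a, Klf13, Trpm1 and Mtmr10, held 33 sites, or 25.9 per Mb, close to the 26.3 of the rest of chromosome 7.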

How the data were processed

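CTCF ChIP-seq peaks of 2 lung libraries were used in 5 lists on mm10, per the file headers and README: a list of 300000 peaks for each replicate, a list called on the pooled libraries, and an optimal and a conservative list thresholded by the irreproducible discovery rate (IDR). The signal of each peak was deposited as the authors' peak caller gave it and was not scaled between lists. The sources used here do not give read depth, read length, aligner, caller or IDR threshold. Summits came from the deposited offsets. Positions are counted from 1. Genes came from GENCODE M21, sequence from GRCm38.p6.

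From these, sites were counted in the window, and a 20-base matrix grown from a 9-base seed in 15 rounds was scanned over both strands. Overlapping matches were kept as the best. Motif learning, matching and scanning were tested on simulated sequence with a planted motif. The nearest-distance step was checked on a few made-up positions, and the other steps were not tested on simulated data. Intervals are 95% Wilson intervals and cover counting error only. Python 3.11.15, numpy 2.4.6, pandas 2.3.3 and scipy 1.17.1 were used. Members, gene lists and sections were chosen with earlier results of these data known. The genes named are the 6 members, their imprinted neighbours, the genes that flank the far side and the nearest gene of each site; the block of genes before the window is not reported here. Copies of the shared motif and of the 11-base core, and the highest-scoring instances without a site, were picked out after their values were seen. With 1 group no comparison between conditions was made. Alternatives were other peak lists, each replicate alone, window edges, motif thresholds, another matrix, matching distances and start sites.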

Additional observations from a re-analysis of the deposited data

How the results depend on the processing

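Of 55 alternatives 46 left their result within 1.5 times (counts and instance densities), inside the interval of the reported share, or within 1 SD of the values from the replicates alone. That SD comes from only 2 values, which are themselves among the alternatives, and the intervals of the site shares come from 27 sites. The count of 46 is therefore not a measure of robustness. Each replicate list was cut to its strongest 54943 peaks, as many as the optimal list has sites, so totals over the genome were matched. Each replicate alone then gave 26 to 29 sites and a density ratio to the rest of chromosome 7 of 0.252 to 0.283. The motif share was 69.2% to 72.4% and the median percentile 44.9 to 46.1. The longest gap, whose alternatives were chosen after seeing the data, was 1042 to 1243 kb. Without flanks the density ratio was 0.225, and against the rest of the genome 0.332. The conservative list gave a median percentile of 42.9. At the 0.1% motif threshold 25.9% of domain sites had a motif, against 17.2% in the rest of the genome, instances stood at 2.55 per Mb, against 4.73, and 70.0% of the 10 had a site, against 76.0%. Without chromosome Y, also chosen after seeing the data, 36 tiles of like GC had fewer sites than the domain, in place of 58. Among the strongest 100000 pooled peaks, 16 of the domain lay outside the optimal list, and the like share elsewhere was not computed. No paired analysis was possible because there is 1 group and no test. Depth is unknown, so which gaps reflect too few reads cannot be told from these lists, and repeated sequence, where reads may be placed poorly, was not tested.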
